A study of Mus musculus with 2 samples.

Results

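Mir137, Mir138-1, Mir138-2, Mir129-1 and Mir129-2 are 5 precursor genes for 3 neuronal microRNAs that act at synapses and dendrites. They were taken by gene symbol from the 2202 microRNA genes counted in each of 2 libraries, and all 5 had at least 10 sense-strand counts in both. The RNA was hippocampal, from female mice at 14 days of age and of the B6CASTF1/J strain, the first-generation cross of C57BL/6J and CAST/EiJ. The labels give 1 group with 2 biological replicates, each a pool of 3 females with 1 library, and name no treatment or engineered allele. Their tissue entry calls the sample a hippocampal layer and leaves the layer unnamed. No contrast between conditions exists, so the data describe levels, the split between gene copies and the difference between the pools. A difference between pools cannot be told apart from one in library preparation.

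A microRNA is cut from a hairpin precursor, and 1 arm or both arms of the hairpin can give a mature RNA of about the length of a read in this assay. The mature RNA guides the silencing complex to messenger RNAs, chiefly through its seed at bases 2 to 8. In neurons, miR-137 acts on maturation, dendrite growth and vesicle release, and its human gene lies at a schizophrenia risk locus. In rat hippocampal neurons miR-138 limits the size of dendritic spines by repressing the depalmitoylating enzyme Lypla1. miR-129 represses the potassium channel Kcna1 in dendrites and takes part in the downscaling of excitatory synapses.

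The mature sequences show which arm products set the copies apart. All 5 genes matched the RefSeq microRNA table (build GRCm38.p6), which gives 7 distinct mature sequences for them. They are shown with the seed in capitals.

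miR-137-3p: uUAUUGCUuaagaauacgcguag
miR-137-5p: aCGGGUAUucuuggguggauaau
miR-138-5p: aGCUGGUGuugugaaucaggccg
miR-138-1-3p: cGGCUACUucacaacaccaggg
miR-138-2-3p: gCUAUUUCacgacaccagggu
miR-129-5p: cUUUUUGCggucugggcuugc
miR-129-2-3p: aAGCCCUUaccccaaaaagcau

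The 7 sequences carry 7 different seeds, and no other gene among the 1738 mature entries of the RefSeq table has any of these seeds. miR-138-5p lies whole in the hairpins of both Mir138-1 and Mir138-2, and miR-129-5p in those of both Mir129-1 and Mir129-2. The copies differ on the other arm. Counted from 1 at the 5′ end of the mature RNA, miR-138-1-3p differs from the Mir138-2 hairpin by C7U and A13G. miR-138-2-3p is placed 2 bases further along, so its seed is not that of miR-138-1-3p, and it differs from the Mir138-1 hairpin by U5C, G11A and U21C. miR-129-2-3p differs from the Mir129-1 hairpin by C20U alone. The RefSeq table lists no 3p sequence for Mir129-1, so no listed product sets that gene apart from Mir129-2. A read of that arm of the Mir129-1 hairpin that reaches base 20 would still carry the U.

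The hairpins of the copied genes are printed next because reads within the capitals, the longest run shared by the pair, belong equally to both copies. A miR-129-2-3p read that ends before base 20 also fits both Mir129 copies, though those bases are not in capitals.

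Mir138-1: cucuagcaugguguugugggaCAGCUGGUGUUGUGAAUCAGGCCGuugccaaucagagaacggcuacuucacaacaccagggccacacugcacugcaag
Mir138-2: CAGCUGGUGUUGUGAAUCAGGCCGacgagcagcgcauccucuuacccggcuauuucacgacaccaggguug
Mir129-1: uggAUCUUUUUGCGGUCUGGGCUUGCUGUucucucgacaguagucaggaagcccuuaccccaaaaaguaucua
Mir129-2: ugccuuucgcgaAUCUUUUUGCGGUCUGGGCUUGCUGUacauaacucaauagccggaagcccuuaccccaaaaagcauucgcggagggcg

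The shared run was 24 bases in the Mir138 pair and 26 bases in the Mir129 pair, against mature 5p lengths of 23 and 21 bases. A window of 22 bases was shared with another microRNA gene at 3 of 78 positions in Mir138-1 and 3 of 50 in Mir138-2. In the Mir129 pair it was shared at 5 of 52 positions in Mir129-1 and 5 of 69 in Mir129-2. Mir137 shared none of its 52 windows, and its longest run in common with any other microRNA gene was 11 bases. The deposited tables set multi-mapping reads apart from genes, so the counts of the 4 copied genes leave out reads that could not be placed. The tables do not say which arm a counted read came from. The levels of Mir138 and Mir129 given here are therefore those of placed reads, and the copies are uncertain in a way that Mir137 is not.

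In GRCm38, Mir137 (ENSMUSG00000065569.2) lies on the forward strand of chromosome 3 at 118433857 to 118433929, inside an exon of the noncoding gene Gm26871. Mir138-1 (ENSMUSG00000065414.1) lies on the forward strand of chromosome 9 at 122682876 to 122682974, inside an exon of the transcribed pseudogene Gm47135. Mir138-2 (ENSMUSG00000065512.3) lies on the forward strand of chromosome 8 at 94324311 to 94324381, inside an exon of the lincRNA C78859. Mir129-1 (ENSMUSG00000065469.1) lies on the forward strand of chromosome 6 at 29022619 to 29022691, inside an exon of the lincRNA Gm3294. Mir129-2 (ENSMUSG00000065511.1) lies on the reverse strand of chromosome 2 at 94241364 to 94241453, in an intron of the lincRNA Mir670hg. All 5 thus sit on the same strand as an overlapping gene that is not annotated as protein-coding. The annotation also places Mir129b on the opposite strand of Mir129-2, over 65 of its 90 bases.

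Libraries had 4764797 sense counts in replicate 1 and 2852269 in replicate 2. Multi-mapping reads made up 40.8% and 37.1% of all reads. Levels are CPM, the count scaled to these sense totals, and their intervals are exact Clopper-Pearson intervals at 95% that cover counting error only. Reads were not divided by gene length, since a read here is a whole small RNA and not a fragment of a longer one. Among the neuron markers, 9 of 12 genes were detected at 10 counts in both libraries, and none was at 0 in both. Their summed level was 15035 CPM in replicate 1 and 11792 in replicate 2. The 3 copies of Mir124a, a neuron-specific microRNA, summed to only 12 and 20 counts, and the 3 copies of Mir9 to 511 and 234. Each of these copies has 20 or more bases in common with another microRNA gene.

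Mir137 stood at 6526 CPM (6453 to 6598) in replicate 1 and 4153 CPM (4079 to 4229) in replicate 2. Its mean of 5339 ± 1678 CPM (SD, n = 2) was the highest of the 5 in placed reads. The level in replicate 1 was above that in replicate 2, and the 2 counting intervals did not overlap. By level Mir137 ranked 32nd of 2202 genes in replicate 1 and 41st in replicate 2.

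Mir138-1 stood at 2760 CPM (2713 to 2808) in replicate 1 and 7155 CPM (7057 to 7253) in replicate 2, with a mean of 4957 ± 3107 CPM (SD, n = 2). Mir138-2 stood at 1509.8 CPM (1475 to 1545) and 3481 CPM (3413 to 3550.1), with a mean of 2495 ± 1394 CPM. Both copies were the higher in replicate 2. Their ranks moved from 60th to 31st and from 91st to 49th between replicate 1 and replicate 2.

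Mir129-2 stood at 657 CPM (634 to 680.1) in replicate 1 and 1409 CPM (1366 to 1453) in replicate 2, with a mean of 1033 ± 532 CPM (SD, n = 2). Mir129-1 was the lowest of the 5, at 156 CPM (145 to 167) and 548 CPM (521 to 576), with a mean of 352 ± 278 CPM. Again both copies were the higher in replicate 2. Mir129-1 rested on the fewest reads, 741 and 1563 sense counts, and its SD was the largest of the 5 relative to its mean.

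**Figure D1:**
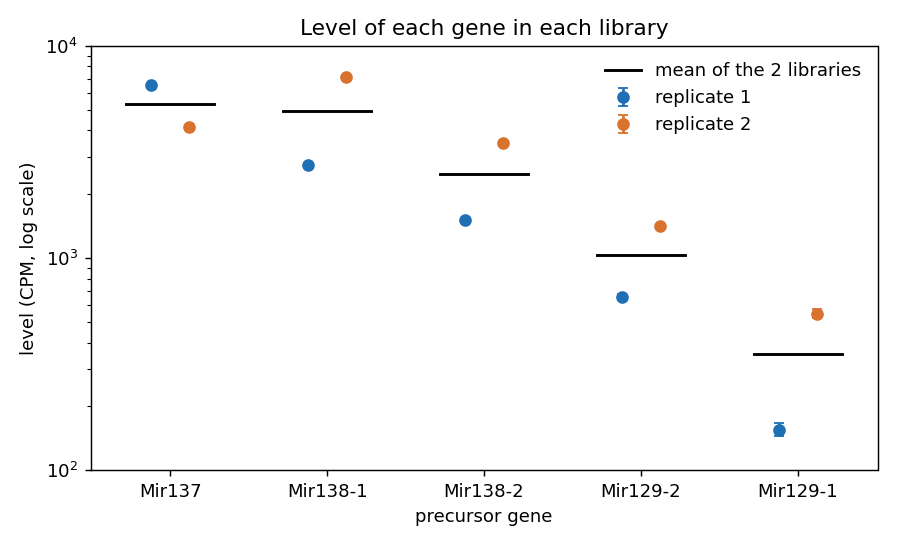
Level of each precursor gene in CPM (log scale) in replicate 1 and replicate 2, with exact 95% counting intervals that are mostly smaller than the points and a bar at the mean. Mir137 is higher in replicate 1 (6526 against 4153 CPM), and the other 4 genes are higher in replicate 2.

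In the order of mean levels of placed reads, Mir137 and Mir138-1 did not differ beyond their spread. Mir137 was 2.36 times Mir138-1 in replicate 1 and 0.580 times Mir138-1 in replicate 2, so the order turned between the pools. The ranges of Mir138-1 and Mir138-2 over the libraries overlapped, but Mir138-1 was the higher within each, by 1.83 and 2.06 times. Mir138-2 lay above Mir129-2 by 2.30 and 2.47 times, and Mir129-2 above Mir129-1 by 4.22 and 2.57 times. The ranges over the 2 libraries did not overlap for either of these last neighbours.

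Together the 5 genes held 1.16% (1.15 to 1.17) of sense counts in replicate 1 and 1.67% (1.66 to 1.69) in replicate 2, a mean of 1.42% ± 0.363 (SD, n = 2). Of these counts, Mir137 made up 56.2% in replicate 1 and 24.8% in replicate 2. The Mir138 copies made up 36.8% and 63.5%, and the Mir129 copies 7.00% and 11.7%. The 2 copied families kept nearly the same proportion to each other, with 5.26 Mir138 counts per Mir129 count in replicate 1 and 5.43 in replicate 2. The proportion of Mir138 to Mir137 counts was 0.654 in replicate 1 and 2.56 in replicate 2. Counts of the Mir138 and Mir129 copies leave out reads that fit both copies of a pair. These shares and proportions therefore hold for placed reads only. In these bulk samples, fewer cells of a type and less of an RNA per cell cannot be told apart.

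Mir138-1 gave most of the placed Mir138 reads, and Mir129-2 most of the placed Mir129 reads. Mir138-1 held 64.6% (64.0 to 65.3) of 20346 Mir138 counts in replicate 1 and 67.3% (66.7 to 67.8) of 30336 in replicate 2, a mean of 66.0% ± 1.86 (SD, n = 2). Mir129-1 held 19.1% (17.9 to 20.4) of 3870 Mir129 counts in replicate 1 and 28.0% (26.8 to 29.2) of 5582 in replicate 2, a mean of 23.6% ± 6.26. The counting intervals of the 2 libraries did not overlap in either pair. In percentage points, the share of the first copy was 2.63 higher in replicate 2 for Mir138-1 and 8.85 higher for Mir129-1. These shares hold for placed reads and not for all miR-138 or miR-129, because reads of the 5p sequences shown above fit both copies. So do miR-129-2-3p reads that end before base 20.

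**Figure D2:**
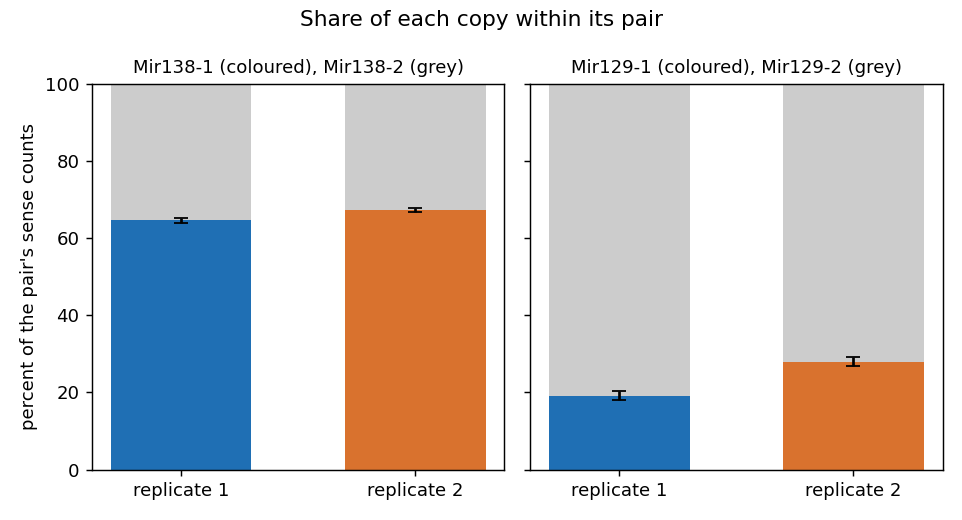
Percent of a pair's sense counts assigned to the first copy (coloured) and the second copy (grey) in each library, with exact 95% binomial intervals. Mir138-1 holds 64.6% and 67.3% of its pair, and Mir129-1 holds 19.1% and 28.0% of its pair.

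The counts behind the difference between the pools were 31093 and 11846 for Mir137, in replicate 1 and replicate 2. They were 13152 and 20407 for Mir138-1 and 7194 and 9929 for Mir138-2. For Mir129-2 they were 3129 and 4019. The raw counts of the 4 copied genes were thus higher in the library with fewer reads.

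After library sizes were scaled by TMM (edgeR's trimmed mean of M-values), 4 of the 5 genes were past 2-fold higher in replicate 2 and none was past 2-fold lower. Over the 450 tested genes, those whose counts summed to 20 or more, 10.7% were past 2-fold higher in replicate 2, 11.3% past 2-fold lower and 22.0% past 2-fold in either direction. With 1 library per pool no p-value was computed, and the 4 genes are 2 pairs of copies that share bases. Among the 208 tested genes with a mean of at least 100 CPM, 15.9% were past 2-fold in either direction. Among the 86 tested genes with 20 or more bases in common with a microRNA gene elsewhere, the share was 26.7%, with 15 higher and 8 lower.

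Mir129-1 had the largest log2 ratio of replicate 2 to replicate 1, 1.94 (95% counting interval 1.81 to 2.07), which ranked 12th of the 450 tested genes. Mir138-1 gave 1.50 (1.46 to 1.53) and Mir138-2 gave 1.33 (1.28 to 1.37), at ranks 23 and 26. Mir129-2 gave 1.22 (1.16 to 1.29), at rank 29. The copies of a pair thus went the same way, and their intervals did not overlap within either pair. Mir137 gave -0.53 (-0.56 to -0.50), at rank 352, on the other side of zero but within 2-fold. The median over the 5 genes was 1.33, the value of Mir138-2, beside 0.01 over all tested genes. In that median the copies of a pair count separately.

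**Figure D3:**
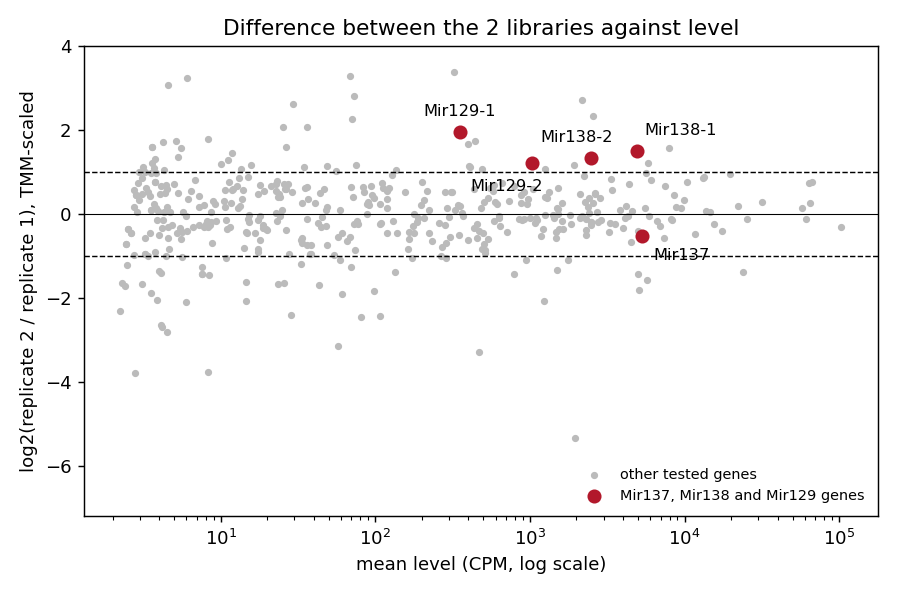
Log2 ratio of replicate 2 to replicate 1 after TMM scaling against mean level in CPM (log scale) for the 450 tested genes, with the 2-fold limits dashed. Mir129-1, Mir138-1, Mir138-2 and Mir129-2 lie above the upper limit, and Mir137 lies at -0.53 between the limits.

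Summed levels of marker lists also differed between the pools, and within several lists the members went both ways. The summed level of choroid plexus and ciliated cell markers, with 4 of 7 detected and Mir449b at 0 in both, was 3951 CPM in replicate 1 and 1189 in replicate 2, and all 4 were lower in replicate 2. Oligodendrocyte markers, 3 of 3 detected, summed to 1928 and 3198 CPM, mostly through Mir219a-2 at 1247 and 2583 CPM, which shares bases with another gene, while Mir338 stood at 664 and 590.1 CPM. Red blood cell markers, 3 of 3 detected, summed to 290.0 and 722 CPM through Mir451a at 217 and 663 CPM, while Mir144 stood at 47.2 and 37.5 CPM and Mir486 at 25.4 and 20.7 CPM. Blood vessel markers, 3 of 4 detected with Mir126b at 0 in both, summed to 15962 and 20349 CPM. That sum was higher in replicate 2 through Mir126a, at 9966 and 16865 CPM, while Mir143 stood at 5729 and 3305 CPM and Mir145a at 268 and 179.5 CPM. The neuron markers given above summed in replicate 2 to 0.784 times their level in replicate 1, but of the 9 detected 4 were higher and 5 lower. Mir128-1 and Mir128-2 were lower, the latter at 2467 and 1066 CPM, while Mir132 and Mir212 were higher, the latter at 266 and 535 CPM. For immune cells 4 of the 5 listed genes were analysed, all 4 detected and lower in replicate 2, with sums of 1136 and 930 CPM. The listed Mir146a had no entry under that symbol, and Mir146, at 683 and 588 CPM, is outside these sums. Muscle markers, 1 of 5 detected and 3 at 0 in both (Mir133a-1, Mir133a-2 and Mir1a-1), summed to 74.3 and 34.4 CPM. The liver marker Mir122 stood at 41.1 and 25.6 CPM and the pancreas marker Mir375 at 645 and 333 CPM. The part of any of these cells in the ratios of Mir137, Mir138 and Mir129 was not tested.

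Other microRNAs with reported roles at synapses or dendrites, a list that includes all 12 neuron markers given above, went in both directions. Of the 32 listed genes, 29 were tested, 5 of them past 2-fold higher in replicate 2, 5 past 2-fold lower and 19 within 2-fold. The share past 2-fold in either direction was 34.5%, beside 22.0% over all tested genes. Of the 29, 17 have 20 or more bases in common with another microRNA gene. The median log2 ratio of the 29 was 0.01, beside 0.01 over all tested genes, and their range was -2.06 to 1.71. The 4 most abundant were Mir191, Mir125a, Mir132 and Mir128-1. Mir132, which neuronal activity induces, stood at 4678 and 7461 CPM in replicate 1 and replicate 2, a log2 ratio of 0.80 (0.77 to 0.82). Mir128-1, which dampens neuronal excitability and shares bases with its copy Mir128-2, stood at 7405 and 2540.1 CPM, a log2 ratio of -1.42 (-1.46 to -1.38). Mir125a, which targets the messenger RNA of the postsynaptic scaffold Dlg4, stood at 9183 and 5658 CPM, a log2 ratio of -0.58. Mir191 stood at 9142 and 10592 CPM, a log2 ratio of 0.33. Only Mir128-1 of these 4 was past 2-fold.

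The 5 past 2-fold higher were Mir124a-1, Mir34a, Mir181a-2, Mir212 and Mir29b-2. The intervals of Mir181a-2 (0.91 to 1.42) and Mir29b-2 (0.75 to 1.50) reached within 2-fold. Mir34a, a microRNA that p53 induces, gave 1.66 (1.54 to 1.78), and Mir212, made beside Mir132, gave 1.13 (1.02 to 1.24). Mir124a-1 gave 1.71 from 10 and 18 counts, with an interval of 0.52 to 2.99. The 5 past 2-fold lower were Mir218-1, Mir26a-1, Mir128-1, Mir153 and Mir128-2. The interval of Mir26a-1 (-2.42 to -0.92) reached within 2-fold. Mir153, a microRNA that represses synaptic vesicle proteins, gave -1.38 (-1.60 to -1.15). Mir9-2, Mir124a-2 and Mir124a-3 fell under the summed count of 20 and were not tested. Beside this list, the 4 Mir138 and Mir129 genes lay near its upper end and Mir137 among its lower members.

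**Figure D4:**
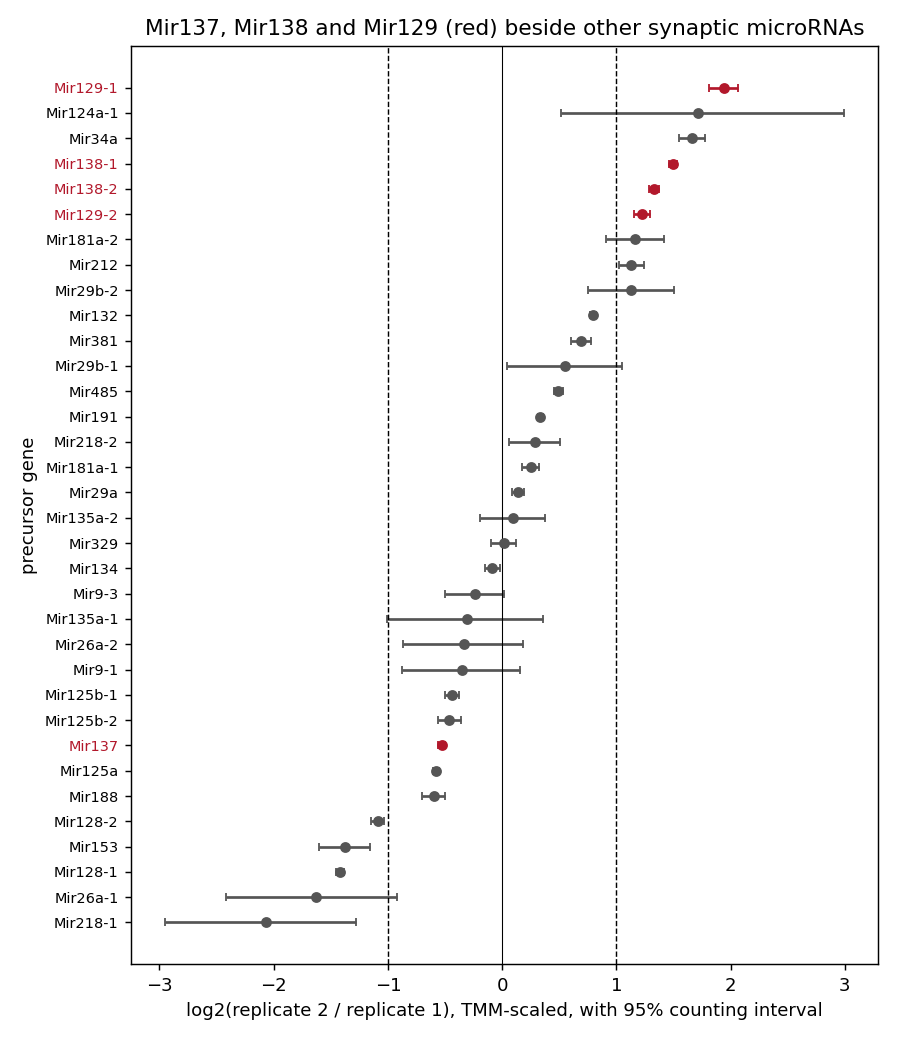
Log2 ratio of replicate 2 to replicate 1 after TMM scaling, with 95% counting intervals, for the 5 genes (red) and the 29 tested genes of the list of other synaptic microRNAs (grey), with the 2-fold limits dashed. The red points of Mir129-1, Mir138-1, Mir138-2 and Mir129-2 are right of the upper limit, and Mir137 is left of zero.

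The genes nearest in level were found as the smallest Euclidean distance in log2(CPM + 1) over the 2 libraries, which is a description of 2 points each. Nearest to Mir137 were Mir130a, at 5872 and 4062 CPM (distance 0.156), and Mir143, at 5729 and 3305 CPM (0.379). Nearest to Mir138-1 were Mir187, at 3713 and 7851 CPM (0.448), and Mir342, at 4027 and 7254 CPM (0.545). Mir138-2 was nearest to Mir423 (0.321) and Mir219a-2 (0.511). Mir129-1 was nearest to Mir34a (0.392) and Mir451a (0.554), and Mir129-2 to Mir351 (0.452) and Mir154 (0.467). The closest of these pairs was that of Mir137 and Mir130a.

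Strand decided the value of Mir129-2 and of no other of the 5 genes. Of its sense counts, 3108 of 3129 in replicate 1 and 4006 of 4019 in replicate 2 were absent from the column that ignores strand. The same 3108 and 4006 counts stood against Mir129b in the opposite-strand column. On its own strand Mir129b had 4 and 2 counts, equal to the opposite-strand counts of Mir129-2. Without strand, Mir129-2 was left with 21 and 13 counts, or 4.70 and 4.87 CPM. Mir137, Mir138-1, Mir138-2 and Mir129-1 had no opposite-strand counts in either library and the same counts with and without strand. A count of 0 allowed up to 0.630 CPM in replicate 1 and 1.05 in replicate 2, taken as 3 counts per library.

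Other annotated microRNA genes near the 5 were at much lower levels. Mir670, on the same strand as Mir129-2 and within Mir670hg as well, lies 19846 bases away and had 142 and 121 sense counts. Gm24155, annotated as a microRNA gene 791 bases downstream of Mir137, had 1 and 0 sense counts.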

How the data were processed

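The deposited tables hold raw read counts per microRNA gene, made by the authors on mm10 with GENCODE M21 per the accompanying text. The labels and files used here name neither aligner nor counter. Each table has an unstranded and 2 stranded columns. Of the stranded columns, the one with the larger total is sense. The lines for unmapped, multi-mapping and unassigned reads (63.9% and 63.6% of reads) stayed out of library sizes.

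Identifiers were matched to M21 (2202 of 2202). CPM used the sense total. Ratios used TMM sizes from edgeR 4.0.16 under R 4.3.3, without a p-value, since 1 library per pool leaves no residual. A gene was called at more than 2-fold. Intervals came from scipy 1.17.1, and those of the ratios were checked on counts simulated with counting noise only. The intervals assume that same noise, so the check does not bear on variation between pools or libraries. Shared bases were searched in M21 transcripts on both strands, 1087 of 2202 genes sharing 20 bases with another. A genome was not used here, so matches outside microRNA genes were not counted. DESeq2 1.42.0 gave alternative size factors.

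The genes and lists were chosen with earlier results of these data known. The rule for named genes took the 5 genes, the 2 nearest in level to each, the 4 most abundant of the synaptic list, any gene with the same seed and overlapping genes. Mir670, Gm24155, the marker genes and the synaptic genes past 2-fold were named after their values were seen.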

Additional observations from a re-analysis of the deposited data

How the results depend on the processing

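Of 64 values over 15 results and 9 alternatives, 45 were labelled the same and 19 moved. Levels and shares were judged by their SD, log2 ratios by their interval, and counts of genes by a set factor between counts. A reversal was possible only for log2 ratios past 2-fold, and none reversed. Leaving out a replicate is not counted, since with 2 libraries each lies within 1 SD of the mean by construction. With all reads as denominator, levels fell by construction to 1934 CPM for Mir137, 1800.1 for Mir138-1, 906 for Mir138-2 and 375 for Mir129-2, and the summed share to 0.514%. Mir129-1 fell to 128 CPM, which is within its wide SD. Without strand, Mir129-2 fell to 4.78 CPM and its log2 ratio to 0.18, Mir129-1 made up 98.2% of its pair, and 3 of the 5 genes were past 2-fold. Its reads then overlap Mir129b and belong to neither gene.

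Total counts as library sizes shifted the median log2 ratio of all tested genes by -0.12. Ratios were then -0.65 for Mir137, 1.37 for Mir138-1, 1.21 for Mir138-2 and 1.10 for Mir129-2. With no filter they were -0.60, 1.42, 1.26 and 1.15, and 311 of 788 genes were past 2-fold, against 99 of 450. A summed count of at least 200 gave 52 of 273. The 4 copied genes stayed past 2-fold under these settings and under DESeq2 size factors. Each of these settings moves all log2 ratios by the same amount, so this is no separate check of each gene. Without genes sharing 20 bases only Mir137 was left, and 0 of 1 was past 2-fold.

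Leaving out a replicate leaves 1 library and no ratio; levels are then those of the other library, from 156 to 548 CPM for Mir129-1. Depth limits Mir129-1 most, at 741 counts in replicate 1.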
